A study of Mus musculus with 2 samples.

Results

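The 10 genes described here mark the white fat cell: Fabp4, Pnpla2, Cidec, Plin1, Adipoq, Lpl, Cfd, Lep, Car3 and Retn. They were taken as a given list and found by Ensembl identifier in the gene tables of both libraries, where they are 10 of 43346 genes. Poly(A) RNA was measured in the small intestine of 1 adult female C57BL/6J mouse aged 10 weeks, with no genetic change or treatment named. The labels give 1 biological replicate with 2 technical libraries, here the first library (technical replicate 1) and the second (technical replicate 2, made later). No condition was compared. In each pair of values below, the earlier library comes before the later one. The labels name the small intestine as the tissue and do not mention mesentery or fat, so the genes are called white adipocyte genes by their list and not by a dissected depot.

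White adipocytes store triglyceride in a single large lipid droplet and release it as fatty acids when the animal fasts. Around the gut they lie in the mesentery, the sheet that carries the vessels and lymphatics of the intestine. They also secrete hormones and a complement protease into the blood, and several genes of this program (Lpl, Fabp4, Pnpla2, Car3) are also used by other cells, among them muscle, macrophages and capillary endothelium.

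The members differ in base composition, and the difference between the libraries followed base composition across all genes. Stretches of coding sequence are therefore shown from members at both ends of the share of G or C over whole transcripts. Each line is 120 bases from the middle of the coding region of the gene's most abundant protein-coding transcript, read 5′ to 3′ from GENCODE M21 on GRCm38, with runs of 5 or more G or C in capitals.
Fabp4-201: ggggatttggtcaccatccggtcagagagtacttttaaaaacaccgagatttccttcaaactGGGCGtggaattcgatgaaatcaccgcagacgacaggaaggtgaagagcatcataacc
Car3-201: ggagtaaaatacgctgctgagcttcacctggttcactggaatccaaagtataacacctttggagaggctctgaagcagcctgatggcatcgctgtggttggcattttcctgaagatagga
Lpl-201: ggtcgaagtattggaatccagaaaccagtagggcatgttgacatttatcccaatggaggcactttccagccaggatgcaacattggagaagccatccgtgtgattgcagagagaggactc
Cfd-201: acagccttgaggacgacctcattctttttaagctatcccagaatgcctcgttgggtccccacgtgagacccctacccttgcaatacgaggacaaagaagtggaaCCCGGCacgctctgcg
Pnpla2-202: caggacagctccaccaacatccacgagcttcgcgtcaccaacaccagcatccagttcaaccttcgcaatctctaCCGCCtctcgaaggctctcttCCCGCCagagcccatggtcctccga
Plin1-202: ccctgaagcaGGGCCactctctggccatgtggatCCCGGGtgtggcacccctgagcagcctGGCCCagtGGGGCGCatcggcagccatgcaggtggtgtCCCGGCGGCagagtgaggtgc
The Fabp4 stretch spans chr3:10205331-10206057 on the minus strand, across exons 2 and 3, and is 47.5% G or C. The Car3 stretch spans chr3:14866901-14869240 on the plus strand, exons 3 to 5, at 48.3%. That of Lpl lies within exon 5 at chr8:68895772-68895891 on the plus strand and is 49.2% G or C. Neither Car3 nor Lpl has a run of 5 G or C in this window. The Cfd stretch lies at chr10:79891819-79892079 on the plus strand, exons 3 and 4, at 55%, and the Pnpla2 stretch at chr7:141458104-141458438 on the plus strand, exons 4 and 5, at 59.2%. The Plin1 stretch, at chr7:79723385-79725684 on the minus strand across exons 5 and 6, is 70.0% G or C and holds 5 such runs, the longest of 9 bases. Over the whole coding region the share of G or C ran from 48.5% in Fabp4 to 63.0% in Plin1. Car3, at 45.7% over its transcripts, had 54.5% in its coding region, against 50.8% in that of Lpl.

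The libraries held 28277875 and 24509862 expected counts, the estimates of reads per gene. Mitochondrial transcripts, nuclear copies included, took 72.3% and 21.6% of TPM (transcript abundance corrected for length and scaled to the same sum in each library), which lowers the TPM of every other gene in the first library. The limit that 0 counts set was 0.106 and 0.122 CPM (counts scaled to library size), and such limits and all intervals given here cover counting error only. All 10 members lie apart from any other annotated gene, and the deposited estimates assigned none of their reads jointly to another gene. Both libraries come from 1 animal, so p-values measure only the difference between these libraries.

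All 10 members had counts in both libraries, at a low share of the transcripts. Together they held 7290 and 12424 counts, a summed 154 and 525 TPM, or 0.0154% and 0.0525% of all TPM. Taken as a share of TPM without mitochondrial genes and copies, the values were 0.0558% and 0.0669%. In a bulk tissue sample, fewer cells of a type and less RNA per cell cannot be told apart. At 1 TPM or more in both libraries stood 4 members (Fabp4, Adipoq, Lpl and Car3), against 40.2% of all protein-coding genes. Another 5 reached 1 TPM in the second library only, and Lep reached it in neither.

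**Figure D1:**
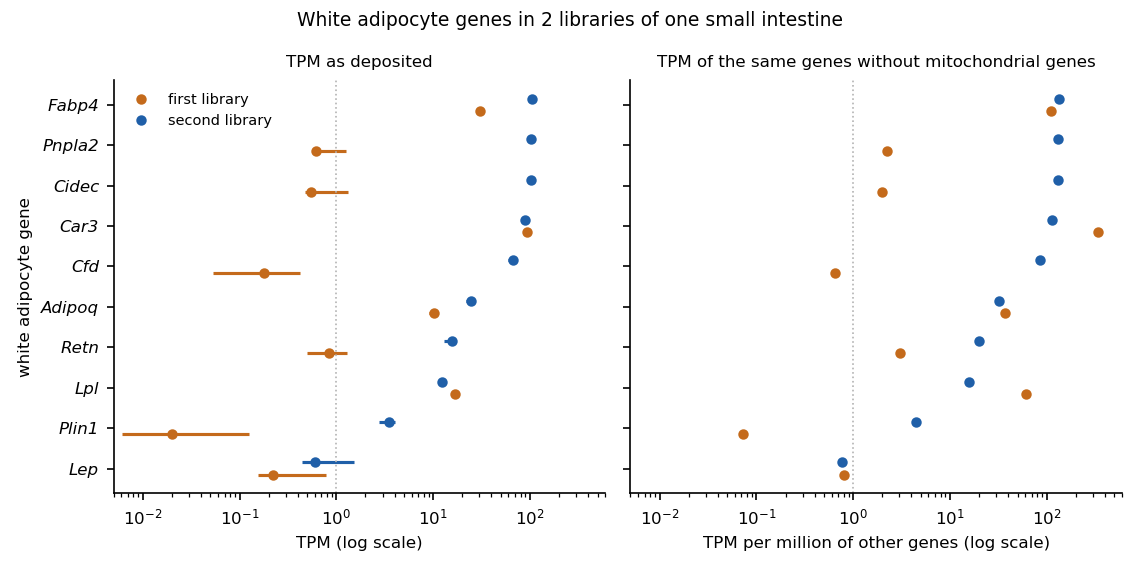
TPM of the 10 white adipocyte genes on a log scale in the first (orange) and second (blue) library, with horizontal bars for the deposited credibility intervals on the left and the same genes rescaled without mitochondrial genes and copies, with no intervals, on the right; the dotted line marks 1 TPM. Car3 lay at 94.2 and 90.0 TPM on the left, whereas Pnpla2, Cidec, Cfd and Plin1 lay far lower in the first library.

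Gene positions are on mm10. Of the secreted products, Adipoq (ENSMUSG00000022878, chr16:23146536-23158028), which encodes the insulin-sensitising hormone adiponectin, had 337 and 523 counts, or 10.3 and 24.9 TPM. Its scaled counts were level, with a second-to-first ratio of 1.00 and a 95% interval from 0.871 to 1.15. Lep (ENSMUSG00000059201, chr6:29060220-29073877), which encodes the satiety hormone leptin, was near the lower end of what these libraries measure, at 20 and 35 counts or 0.22 and 0.60 TPM. Its ratio was 1.13, with an interval from 0.634 to 2.06. Neither hormone gene passed the exact binomial test (adjusted p = 1 and 0.799), and the interval of Lep is wide enough to reach 2-fold. Within each library the TPM of Lep was 0.0213 and 0.0241 times that of Adipoq.

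The other secreted products differed. Retn (ENSMUSG00000012705, chr8:3655770-3660110), which encodes resistin, a hormone that mouse adipocytes release, had 18 and 204 counts, or 0.84 and 15.6 TPM. It was 7.31-fold higher in the second library (95% interval 4.51 to 12.6, adjusted p = 1.7e-25 in the exact binomial test). Cfd (ENSMUSG00000061780, chr10:79890853-79892655) encodes adipsin, the protease that cleaves factor B in the alternative complement pathway, and had 4 and 940 counts. Its level was 0.18 and 67.0 TPM, with a ratio of 152 (interval 59.0 to 557). Adipsin RNA was thus among the more abundant members in one library and close to undetected in the other.

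The lipid droplet and lipolysis genes lay on the same side. Pnpla2 (ENSMUSG00000025509, chr7:141455198-141460743) encodes the lipase that takes the first fatty acid off triglyceride, and had 45 and 3309 counts, or 0.62 and 104 TPM. Cidec (ENSMUSG00000030278, chr6:113424634-113435760), whose protein fuses lipid droplets into larger ones, had 25 and 2374 counts, or 0.55 and 103 TPM. Plin1 (ENSMUSG00000030546, chr7:79720218-79732903), whose protein coats the droplet and restrains lipolysis, had 1 and 112 counts, or 0.02 and 3.51 TPM. All of these were higher in the second library. The ratio was 47.4 for Pnpla2 (95% interval 35.4 to 65.1) and 61.2 for Cidec (41.4 to 94.8). For Plin1 it was 72.2, with an interval from 12.7 to 2878 that reflects the single count in the first library.

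Lpl, Fabp4 and Car3 behaved in another way. Their transcripts have 41.5% to 47.1% G or C, against 56.4% to 61.3% in Pnpla2, Cidec and Plin1. Lpl (ENSMUSG00000015568, chr8:68880491-68907448) encodes lipoprotein lipase, which frees fatty acids from circulating triglyceride, and had 1956 and 916 counts, or 16.8 and 12.4 TPM. Fabp4 (ENSMUSG00000062515, chr3:10204088-10208576) encodes the cytosolic fatty acid carrier of adipocytes and had 743 and 1512 counts, or 30.6 and 105 TPM. Car3 (ENSMUSG00000027559, chr3:14863512-14872523), a carbonic anhydrase abundant in adipocytes and in skeletal muscle, had 4141 and 2499 counts, or 94.2 and 90.0 TPM. Lpl was 3.31-fold higher in the first library (95% interval 3.06 to 3.58, adjusted p = 8.2e-214, exact binomial test). Car3 was 2.57-fold higher there (2.44 to 2.70), although its TPM values were close, because scaled counts are not lowered by the mitochondrial share. Fabp4 was 1.31-fold higher in the second library (1.20 to 1.44), which passed the exact test (adjusted p = 1.3e-09) but not the 2-fold minimum.

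The order of the members therefore differed between the libraries. In the first, Car3 led, then Fabp4, Lpl and Adipoq, each with a deposited credibility interval apart from the next. The other 6 followed below 1 TPM, in the order Retn, Pnpla2, Cidec, Lep, Cfd and Plin1, and each overlapped its neighbour. In the second, Fabp4, Pnpla2 and Cidec stood together between 103 and 105 TPM with overlapping intervals. Below them came Car3, Cfd, Adipoq, Retn, Lpl, Plin1 and Lep, all apart from their neighbours. Set against Adipoq within each library, which needs no scaling, Fabp4 stood at 2.97 and 4.20 times its TPM and Lpl at 1.63 and 0.496 times. Cidec stood at 0.0532 and 4.12 times the TPM of Adipoq. The members' TPM ranks had a Spearman correlation of 0.418 between the libraries over 10 genes, given as a description.

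By the rule of an adjusted p under 0.05 and 2-fold or more, Pnpla2, Cidec, Plin1, Cfd and Retn passed on the side of the second library, 5 of 10 members against 40.2% of the 15194 genes tested. Another 2 (Lpl and Car3) were higher in the first, against 27.5% of tested genes. These shares are near the background and are not a result about adipocyte genes. Across all tested genes the split was 6108 higher in the second and 4174 higher in the first. Scaling by total counts turned this into 7809 and 1526 and moved the median log2 ratio of all genes from 0.26 to 1.10. Under that scaling Fabp4 became 2-fold higher in the second library (log2 ratio 1.23), while Lpl (-0.89) and Car3 (-0.52) no longer reached 2-fold. The median log2 ratio was 1.61 over the members and 0.26 over all tested genes.

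The log2 ratio followed the share of G or C in a gene's transcripts. Among all tested genes the median log2 ratio was -1.69 at 45% G or C or less (3073 genes) and -0.55 from 45% to 50% (4157 genes). It was 1.32 from 50% to 55% (4217 genes), 3.96 from 55% to 60% (3099 genes) and 5.63 above 60% (581 genes). The members fell along the same slope, with Fabp4 at 41.5% and Plin1 at 61.3%. Spearman's rho of log2 ratio with this share was 0.758 over the 10 members and 0.855 over 15127 genes, as descriptions over points that share both libraries. The 4 members above 55% (Pnpla2, Cidec, Cfd and Plin1) were the ones with the largest ratios. The part of library making in this slope was not tested.

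**Figure D2:**
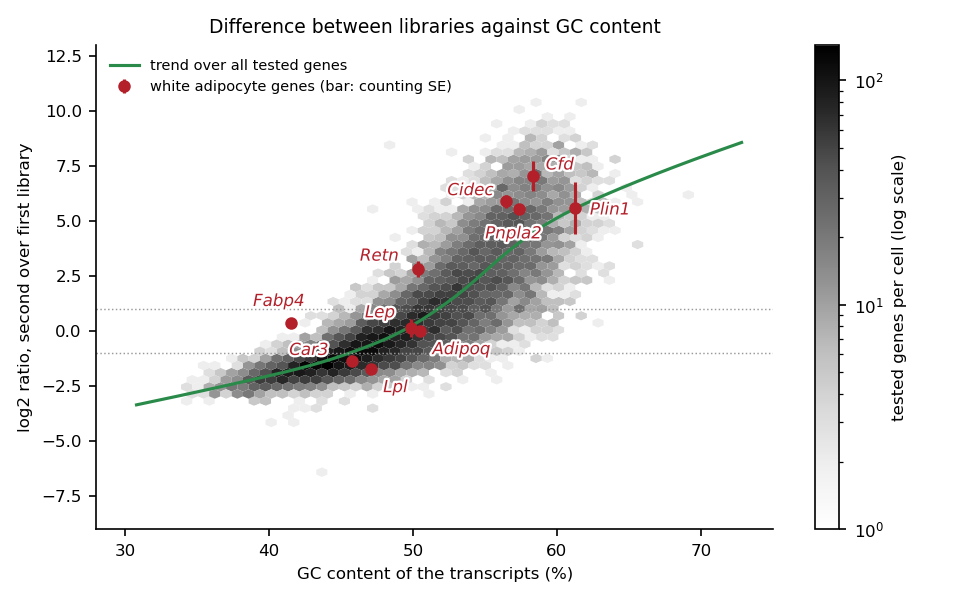
Log2 ratio of the second over the first library against the percent of G or C in a gene's transcripts, with tested genes as grey cells, the trend over nuclear genes as a green line and the 10 members in red with counting standard errors; dotted lines mark 2-fold. Plin1 lay on the trend at 5.60, while Fabp4 at 41.5% G or C lay above it and Lpl below.

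Members with a similar mean base composition over their annotated transcripts still parted from one another. With the trend over nuclear genes taken off, the remainder was 2.58 for Cfd, 2.41 for Retn, 2.37 for Cidec and 2.18 for Fabp4. Pnpla2 kept 1.55. Those 5 members stood 2-fold or more above the trend, a side that held 20.3% of 15127 genes. Lpl, at -1.09, was the 1 member 2-fold or more below it, a side that held 18.8%. That value rests on a mean of 47.1% G or C for Lpl, while Lpl-201, its only transcript with counts, has 43.5%. The remainder of Lpl at 43.5% is not given here. Adipoq (-0.47), Car3 (-0.40), Lep (-0.07) and Plin1 (0.01) lay within 2-fold of it, as did 60.9% of genes. Every member lay within the range from -2.40 to 2.76 that holds the middle of all genes between the 5th and 95th percentiles. The pair Adipoq and Retn had 50.5% and 50.4% G or C by this mean. They differed by more than their counting errors, at log2 ratios of 0.00 ± 0.10 and 2.83 ± 0.35 (counting SE). Their main transcripts are less alike, with Adipoq-201, which held all of its gene's TPM, at 47.5% and Retn-201 at 51.4%. The trend stood at -0.53 at 47.5% and at 0.85 at 51.4%, against 0.47 and 0.42 at the means of Adipoq and Retn. At the composition of Adipoq-201, Adipoq would lie above the trend and not below it. The remainders of the pair would then lie closer together. The part of that gap in the pair's difference was not tested. The median remainder of the members was 0.78, against -0.01 for all genes. No test was made on these remainders.

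The transcripts behind the larger ratios also differed. Of Pnpla2, the first library's 45 counts were all assigned to Pnpla2-203. In the second library Pnpla2-201, annotated as subject to nonsense-mediated decay, held 59.4% of the gene's TPM, Pnpla2-202 held 22.5%, and Pnpla2-203 held 4.5%. Of Cidec, Cidec-202 held 100% in the first library, and in the second Cidec-201 held 57.1%, Cidec-203 32.5% and Cidec-202 10.4%. The effective length used for TPM was 2435 and 1698 bases for Pnpla2 and 1530 and 1229 bases for Cidec. The first library's shares rest on 45 and 25 counts.

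The other members, apart from Plin1, kept 1 main transcript. Adipoq, Lpl and Lep had a single transcript with all of their TPM in both libraries, and Cfd has 1 transcript in the tables. Fabp4-201 held 96.6% and 98.5%, and Car3-201 held 98.9% and 90.5%. The retained-intron transcript Car3-202 had 34.1 and 196 expected counts, and Car3-203 had 1.59 and 0. Retn-201 held 86.1% and 100% of its gene, with 3.29 of 18 counts in the first library assigned to Retn-202. Plin1 had a single count in the first library, which gives no share. In the second library Plin1-202 held 76.9% and Plin1-201 23.1%.

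**Figure D3:**
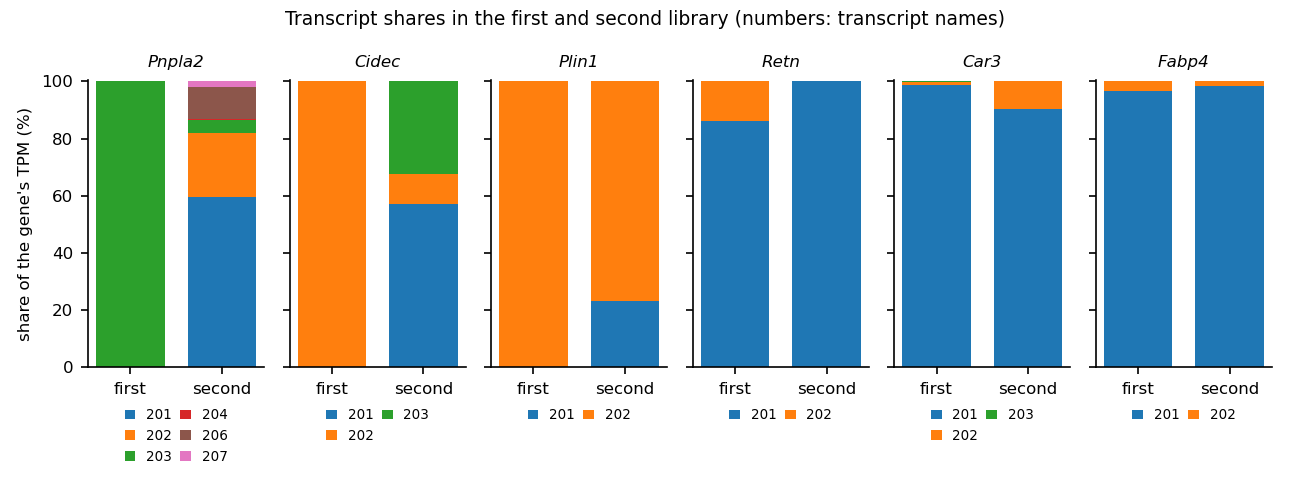
Percent of each gene's TPM held by its transcripts (colours, numbered as in their names) in the first and second library for the 6 members with more than 1 expressed transcript. Pnpla2 and Cidec were assigned to a single transcript in the first library and to several in the second, where Pnpla2-201 held 59.4%, whereas Fabp4-201 held over 96% in both.

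The levels of the members were set beside those of their relatives. Fabp4 stood far below the enterocyte carriers Fabp1 at 1080 and 9783 TPM and Fabp2 at 3191 and 5248 TPM. Pnpla3 (0.43 and 1.42 TPM) and Pnpla1 (0.09 and 0.65 TPM) had lower TPM than Pnpla2 in both libraries. Retn was close to its relative Retnlg in the first library (0.84 and 0.97 TPM) and above it in the second (15.6 and 4.93 TPM). Car3 was above Car4, which stood at 23.4 TPM, in the first library and below it, at 108 TPM, in the second. Lpl stood above Lipg, the endothelial lipase, at 0.88 and 4.30 TPM, and far below Pnlip at 433 and 1045 TPM. Cidec stood below Cideb, which is used in lipoprotein lipidation, at 3.06 and 318 TPM. Both Cide genes were lower in the first library, as were Plin3 (42.4 and 206 TPM) and Plin2 (2.50 and 82.5 TPM) among the droplet coats.

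**Figure D4:**
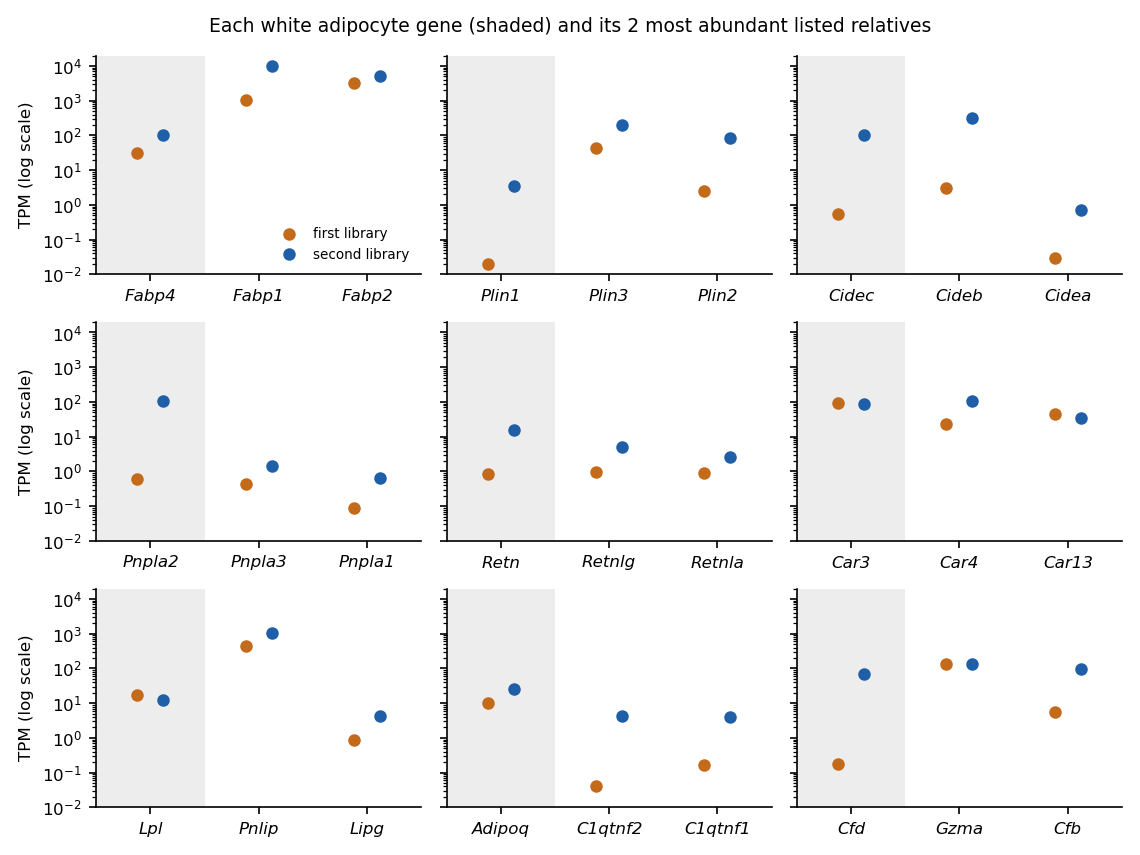
TPM on a log scale of 9 members (shaded, all but Lep) beside the 2 most abundant of their listed relatives in the first (orange) and second (blue) library. Fabp1 and Fabp2 lay above Fabp4 in both libraries, at 1080 and 3191 TPM against 30.6 TPM in the first.

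The wider adipocyte pathways were measured alongside. Of 14 lipid droplet and lipolysis genes 12 were tested, of which 8 passed as higher in the second library and 1 as higher in the first, against 40.2% and 27.5% of all genes tested. The list's median log2 ratio was 2.65, and 0.52 with the trend taken off, against 0.26 and -0.01 for all genes. Hormone-sensitive lipase (Lipe), which acts after Pnpla2 in lipolysis, had 6 and 2925 counts, or 0.07 and 60.7 TPM. Of 15 fat synthesis and handling genes, 8 passed as higher in the second library and 3 as higher in the first, against the same 40.2% and 27.5%, at a median log2 ratio of 1.08. Among them Dgat1, which makes triglyceride, stood at 49.2 and 580 TPM, and Cd36, which takes up fatty acids, at 115 and 70.8 TPM. Both genes are also used by enterocytes to absorb fat.

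Of 10 adipogenic transcription factors, 7 passed as higher in the second library and 2 as higher in the first (40.2% and 27.5% of all genes). With the trend taken off, 1 stood 2-fold or more above it and 5 below (20.3% and 18.8% of all genes), with a median of -1.01. Pparg, the master regulator of fat cells, had 5.38 and 13.4 TPM and a level scaled count (log2 ratio 0.03). Cebpa, its partner in fat cell differentiation, had 1.18 and 20.8 TPM. Of 11 receptors for adipocyte hormones and insulin and their signalling partners, 3 passed as higher in the second library and 5 as higher in the first, beside 40.2% and 27.5% of all genes. The adiponectin receptor genes Adipor2 (80.3 and 277 TPM) and Adipor1 (14.1 and 60.9 TPM) did not reach 2-fold. For the partners of lipoprotein lipase, 10 of 12 were tested, 8 passed as higher in the second library and 1 as higher in the first, beside the same 40.2% and 27.5%. Their median log2 ratio was 5.35, and 1.81 with the trend taken off. Apoc2, which activates the lipase, stood at 5.89 and 3215 TPM and was higher in the second library, the opposite side to Lpl itself. The transcripts of Apoc2 have 55.6% G or C, against 47.1% for Lpl. Gpihbp1, which holds the lipase on capillaries, had 2 and 30 counts.

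Factor B (Cfb), the substrate of adipsin, stood at 5.50 and 99.4 TPM and C3 at 6.26 and 23.1 TPM. Of 9 alternative complement genes, 3 passed as higher in the second library and 4 as higher in the first. Among 12 other adipokines the counts were 6 and 2, and the shares of all genes were 40.2% and 27.5% for both lists. Itln1, also a gut goblet and Paneth cell product, led them at 109 and 1116 TPM.

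The marker counts that follow are to be read against 40.2% of all tested genes higher in the second library and 27.5% higher in the first. Of 8 brown and beige fat markers 4 were tested, 2 of them higher in each library. Ucp1 (0 and 1 counts), Elovl3 (0 in both) and Zic1 (0 in both) were at or near 0, as was Cox8b (0 and 4 counts). Cox7a1, also a heart and muscle gene, stood at 0.19 and 322 TPM. Ppargc1a stood at 20.7 and 19.75 TPM and Prdm16 at 1.17 and 10.73 TPM, and Dio2 had 31 and 19 counts. Mesothelial markers were low, with a summed 4.90 and 7.72 TPM over 8 genes, and of 6 tested 3 passed on the second library's side and 2 on the first's. Preadipocyte and stromal genes summed to 438 and 394 TPM over 10 genes, a total led by Dpp4 (277 and 153 TPM), which enterocytes also carry on their brush border. Of the 9 tested, 2 passed on each side.

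Markers of cells that also use Fabp4, Lpl or Car3 were detected, but those of skeletal muscle were near 0 in the first library. Capillary endothelial markers summed to 20.3 and 145 TPM over 10 genes, of which 7 passed as higher in the second library and 1 as higher in the first (40.2% and 27.5% of all genes). With the trend taken off, 2 of these endothelial genes stood 2-fold or more above it and none below, against 20.3% and 18.8% of genes. Macrophage markers summed to 42.6 and 402 TPM over 10 genes, again 7 and 1 by the same count, and 6 of them stood 2-fold or more above the trend and 1 below. Skeletal muscle markers, relevant to Car3, summed to 0.07 and 20.1 TPM over 8 genes. Only 3 were tested, and all 3 were higher in the second library. The rest had too few counts, with Myh4 at 0 in both libraries. Myh1 and Tnnt3 had 0 and 1 counts each, Mb 0 and 12 and Myh7 1 and 12.4. Ckm stood at 0 and 7.12 TPM, Acta1 at 0 and 6.85 TPM and Mylpf at 0.06 and 5.18 TPM. Ckm and Acta1 have 60.9% and 57.0% G or C, a range in which genes read lower in the first library. With the trend taken off, Ckm kept a log2 ratio of 2.28, Acta1 3.88 and Mylpf 2.90, values that depend on the prior count. All 3 thus stood 2-fold or more above the trend, against 20.3% of genes. Car3 stood at 94.2 and 90.0 TPM. Acinar pancreas markers, from another organ beside the mesentery, summed to 2078 and 11768 TPM over 8 genes, and 6 of them passed as higher in the second library. Lymphatic endothelial markers summed to 19.3 and 47.4 TPM over 7 genes, of which 2 passed on the second library's side and 3 on the first's. The part of these cells in the levels of Fabp4, Lpl, Car3 and the other members was not tested.

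**Figure D5:**
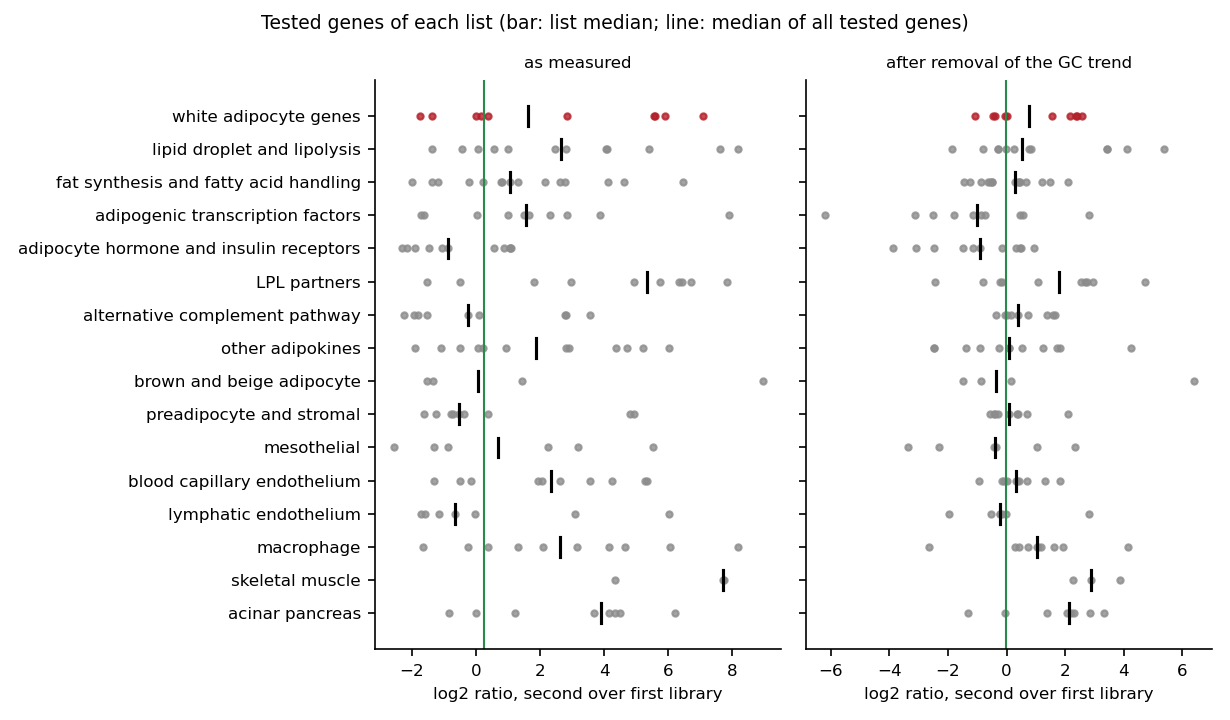
Log2 ratio of the second over the first library for the tested genes of each list, with the members first, and the median of each list as a bar and that of all tested genes as a green line, as measured on the left and with the GC trend removed on the right; the ratios of genes at 0 counts in 1 library depend on the prior count of 0.5. The partners of lipoprotein lipase had a median of 5.35 on the left and 1.81 on the right. Receptors for adipocyte hormones and insulin had medians of -0.85 and -0.91.

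Over the 2 libraries, the protein-coding genes whose TPM pair was closest to that of Adipoq were Polr2b, Bfar and Pigu, at distances of 0.033, 0.049 and 0.071 in log2(TPM + 1). For Fabp4 they were Optn, Rab5if and Sqstm1, at 0.100, 0.129 and 0.133. A pair of values sets these distances, so they describe like levels only.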

How the data were processed

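Poly(A) RNA-seq of the small intestine of 1 female mouse was deposited as a gene and a transcript table for each of 2 technical libraries, in the RSEM format per the file headers, on assembly mm10 with annotation M4 per the deposited notes. The aligner and quantifier version were not given in the sources used here. Per the file headers, reads per gene are expected counts, estimates that need not be whole. TPM values were deposited as abundances per effective length, brought to one sum per library, per the file headers. The deposited FPKM (per effective length and sequencing depth) served for 1 alternative. The columns read as plain signal values, per the file headers, were the TPM credibility bounds, whose level is not stated, the SD of the estimated count and the effective length. Isoform shares were deposited as a percent of a gene's TPM. The members and lists were chosen with earlier results of these data known.

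Symbols, positions, base composition and sequences came from GENCODE M21 on the same assembly, matched on identifiers without version (42462 of 43346 genes had a symbol, 42721 a base composition). The deposited length of Plin1-202 and of Cfd-201 differed slightly from M21. Copies of mitochondrial genes in the nuclear genome were identified by BLAST 2.17.0 (95% identity over 100 bases), 48 genes in all with the originals.

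A comparison of 1 library with 1 leaves no residual degrees of freedom for edgeR's quasi-likelihood test. In its place a two-sided exact binomial test was run on rounded expected counts for genes with 20 or more counts over both libraries, against TMM-scaled sizes (edgeR 4.0.16, R 4.3.3; SciPy 1.17.1), with Benjamini-Hochberg adjustment over all 15194 genes tested. Calls needed an adjusted p under 0.05 and 2-fold. It compares these libraries and measures counting error alone, because without molecular identifiers a read is not an independent molecule. For log2 ratios 0.5 prior counts were added, and the second library is the numerator. The trend on base composition was a lowess curve (span 0.3, statsmodels 0.14.6). A gene's share of G or C was the plain mean over its annotated transcripts, with or without counts. Fold intervals are 95% Clopper-Pearson.

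The genes named were the 10 members and genes from the up to 4 most abundant of each list, with marker genes at 0 counts. Relatives were named from the 2 most abundant of each member, not all of them in the text. The 3 nearest genes of Adipoq and Fabp4 were named as well. Gpihbp1, Ucp1, Dio2, Myh1, Myh7 and Tnnt3 were named outside this rule, after their values were seen. The test was tested on simulated data. Alternatives were DESeq2 1.42.0 size factors, total-count scalings, other filters, folds, prior counts, TPM levels and trend spans.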

Additional observations from a re-analysis of the deposited data

How the results depend on the processing

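With 1 animal and 2 technical libraries, nothing here measures variation between mice. The count of members higher in the second library kept within 1.5 times of its value under every alternative run. The count higher in the first fell from 2 to 0 with total-count scaling and to 0 at a 4-fold minimum. The members' mean TPM share, 0.0340%, was 0.0614% without mitochondrial genes and copies and ranged from 0.0154% to 0.0525% with each library alone. The 4 members at 1 TPM or more in both libraries became 7 at 0.5 TPM and 7 in TPM without mitochondrial genes, and the count ranged from 4 to 9 with each library alone. No direction reversed in a called value. Total-count scaling raised the log2 ratio of Fabp4 to 1.23. Of all tested genes, 1526 were higher in the first library with total counts and 1167 at 4-fold, against 4174. Of 240 list counts recomputed, 202 stayed within 1.5 times and 38 moved, 16 of them at 4-fold and 14 under total counts; the cause was not tested. Lep, with 55 counts in all, was not tested at the filter of 100 counts. Low counts in the first library limit Plin1, Cfd, Retn and Lep most, at 1, 4, 18 and 20. That library held more counts in all, 28277875 against 24509862.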
